A study of Mus musculus with 18 samples.

Results

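Fibromodulin (Fmod) and 7 related small leucine-rich proteoglycans, decorin (Dcn), lumican (Lum), biglycan (Bgn), osteoglycin (Ogn), prolargin (Prelp), asporin (Aspn) and podocan (Podn), were examined in stromal cells and lymphatic endothelial cells sorted from the adult mouse small intestine. The members were the rows of the count tables with these 8 gene symbols, of 23238 symbols in all, and every member was found in every table. The family was selected on the CPM (read counts scaled to library size) of Fmod, whose difference between knockout and control stromal cells was known from these libraries, so that comparison is given for the members as a description with no test. Relative to control stromal cells, knockout stromal cells had more Fmod, Ogn and Prelp RNA and less Aspn, Lum and Bgn RNA. The gap between the groups was narrow for Prelp and Bgn. Of the 8 genes, Prelp stood apart between the cell types, since it was the member whose level was higher in control lymphatic endothelial cells than in control stromal cells.

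Small leucine-rich proteoglycans are secreted proteins of the extracellular matrix whose core is a curved stack of leucine-rich repeats. Most of them bind collagen fibrils, where they influence how fibrils assemble, how thick they grow and how they are cross-linked, and several bind growth factors such as TGF-β. Decorin and biglycan carry chains of chondroitin or dermatan sulphate, lumican and fibromodulin can carry keratan sulphate, and asporin lacks the usual attachment site for such chains. In connective tissue, including the wall of the gut, they are made mainly by fibroblasts and smooth muscle cells.

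The study asked how loss of the Hippo pathway kinases LATS1 and LATS2 in stromal cells affects these cells and the neighbouring lacteals, the lymphatic vessels of the villi. RNA was measured in PDGFRb+ intestinal stromal cells (IntSCs) and in lacteal lymphatic endothelial cells (LECs) by a protocol that reads the 3′ end of transcripts. Control mice (WT) carried the genotype PDGFRb+-CreERT2-Tomato+, and knockout mice (KO) carried Lats1f/f and Lats2 f/f in addition. All groups were adult C57BL/6J mice, so the inducible Cre recombinase and the tdTomato reporter were present in all 4 groups and the floxed alleles in the KO groups. The Cre acts in PDGFRb+ cells, which in the gut include several kinds of fibroblast, pericytes and a subset of smooth muscle cells, and the LATS genes were not targeted in the LECs themselves. There were 6 WT IntSC, 5 KO IntSC, 4 WT LEC and 3 KO LEC libraries. The labels do not say whether each library came from a separate animal. The paper's legends give ranges of mice per group that match the library numbers, pooled from independent experiments. This points to a separate mouse per library, but no source ties a given library to a mouse or an experiment. The p-values therefore measure the spread between these libraries, and differences between experiments could not be separated from it.

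Total counts ranged from 5361250 to 10549233 per library, and the ribosomal RNA precursor Rn45s took 7.02% to 24.4% of them. The targeted genes did not check the labels: mean CPM of Lats1 was 17.3 ± 10.2 (SD, n = 6) in the WT and 15.9 ± 3.55 (SD, n = 5) in the KO IntSC libraries, and that of Lats2 was 72.0 ± 23.7 and 113 ± 20.9. Pdgfrb stood at 479 ± 162 and 873 ± 202 CPM. None of these 3 differences passed the threshold (edgeR adjusted p = 0.987, 0.252 and 0.0613). KO therefore means the libraries labelled so, and reads from the 3′ end do not show whether internal exons are missing. The cell types were as labelled: 9 markers of LECs summed to between 8911 and 15559 CPM in the LEC libraries and between 237 and 498 CPM in the IntSC libraries, and 7 fibroblast markers summed to between 4388 and 11271 CPM in IntSCs and between 478 and 1370 CPM in LECs. One of the 7, Thy1, was higher in LECs (mean 441 CPM in WT LECs and 2.36 CPM in WT IntSCs), so the list is also given without it, a choice made after seeing the data, and the other 6 summed to between 96.2 and 1037 CPM in LECs.

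Several members lie side by side in the mouse genome. Positions are from GENCODE vM21 (GRCm38, the assembly that the submitters' processing notes list as mm10). Prelp (chr1:133910304-133921414, minus strand) and Fmod (chr1:134037254-134048277, plus strand) are 115.8 kb apart with no annotated protein-coding gene between them. Dcn (chr10:97479609-97518143) and Lum (chr10:97565128-97572703) are neighbours 47.0 kb apart, both on the plus strand. Aspn (chr13:49544443-49567565) and Ogn (chr13:49608046-49624501), also on the plus strand, are separated by a single protein-coding gene, Omd, which encodes osteomodulin of the same family. Bgn (chrX:73483602-73495933, plus strand) and Podn (chr4:108014791-108096445, minus strand) stand alone. Aspn and Ogn lie inside the antisense gene Cenpp, which did not exceed 9.84 CPM in any library. The Podn model overlaps Scp2 on the same strand, which reached 129 CPM, so the reads of Podn and Scp2 may have been split between them and Podn values are uncertain.

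The start regions of the members whose RNA differed most between KO and WT IntSCs are shown because the kinases act through YAP and TAZ, which bind DNA with TEAD factors. Each run holds 250 bases before and 50 after the annotated start (RefSeq, GRCm38.p6), 5′ to 3′ on the strand of the gene, and 6 of the 8 members had such a sequence (not Dcn and Lum). Capitals mark matches, on either strand, to the motif letters of TEAD (GGAATG) or SMAD (CAGAC). AP-1 (TGANTCA) and the CArG box of serum response factor were also searched, and no match overlapped another.
Fmod, chr1:134037004-134037303, plus strand: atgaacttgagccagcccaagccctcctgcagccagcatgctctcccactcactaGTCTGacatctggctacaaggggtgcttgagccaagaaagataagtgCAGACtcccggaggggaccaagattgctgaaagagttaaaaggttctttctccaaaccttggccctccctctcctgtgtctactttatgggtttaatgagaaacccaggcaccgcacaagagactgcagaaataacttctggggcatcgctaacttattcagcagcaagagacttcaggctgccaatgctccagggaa
Ogn, chr13:49607765-49608064, plus strand: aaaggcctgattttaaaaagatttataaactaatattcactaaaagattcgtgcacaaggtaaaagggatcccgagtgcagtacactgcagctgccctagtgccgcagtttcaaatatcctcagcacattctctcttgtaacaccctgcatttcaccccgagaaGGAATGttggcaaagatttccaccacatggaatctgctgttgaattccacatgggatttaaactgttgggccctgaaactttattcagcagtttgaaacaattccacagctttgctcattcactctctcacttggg
Prelp, chr1:133921352-133921651, minus strand: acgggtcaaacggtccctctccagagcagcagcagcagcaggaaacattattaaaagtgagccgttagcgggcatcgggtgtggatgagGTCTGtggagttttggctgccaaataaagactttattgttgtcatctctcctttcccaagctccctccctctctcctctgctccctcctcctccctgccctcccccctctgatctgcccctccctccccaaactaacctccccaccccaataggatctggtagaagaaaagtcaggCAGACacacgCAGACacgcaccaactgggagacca
Aspn, chr13:49544193-49544492, plus strand: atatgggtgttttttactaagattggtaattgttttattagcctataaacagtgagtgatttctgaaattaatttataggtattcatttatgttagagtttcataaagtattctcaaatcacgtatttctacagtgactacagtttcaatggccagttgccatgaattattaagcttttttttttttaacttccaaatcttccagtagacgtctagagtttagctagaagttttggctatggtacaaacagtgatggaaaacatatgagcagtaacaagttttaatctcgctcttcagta
Ogn held the only match to the TEAD letters GGAATG among the 6 members, beginning 86 bases before the start (position -86). The paper took the shorter GGAAT as the TEAD sequence, which was not searched here and would match more often. The letters GGAATG were found, on either strand, in 14.7% of all 32851 windows of the same table. Fmod held SMAD letters at positions -195 and -148, and Prelp held them at -161, 16 and 26. In a second start window of Podn there was a SMAD match at position 38, and 49.6% of all windows had at least 1. Neither AP-1 letters (7.81% of all windows) nor a CArG box (1.63%) were found in any member, and Aspn and Bgn had no match of any kind. A match describes these letters only, and their absence says nothing about the factor, which may act from outside these windows.

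Fmod, which binds collagen fibrils and guides their cross-linking, differed most between the stromal groups. In WT IntSCs its level ranged from 5.85 to 11.9 CPM with a median of 8.93 CPM. The 5 KO IntSC libraries stood at 80.8, 89.5, 116, 192 and 135 CPM. Every KO library was thus higher than every WT library and the fitted log2 fold change was 3.78 ± 0.29 (SE), 13.8-fold. In such bulk samples, more RNA per cell and more cells of an expressing type cannot be told apart.

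Ogn, another collagen-binding member first described in bone, was also higher in KO IntSCs. It ranged from 36.5 to 105 CPM (median 63.3 CPM) in WT IntSCs and was 196, 194, 240, 222 and 179 CPM in the KO libraries. The groups did not overlap, and the log2 fold change was 1.68 ± 0.23 (SE). Prelp, which links basement membranes to the collagen beneath them, ranged from 141 to 202.1 CPM (median 157 CPM) in WT IntSCs and was 285, 247, 297, 354 and 202.5 CPM in KO IntSCs. The lowest KO library and the highest WT library nearly met, and the log2 fold change was 0.77 ± 0.18 (SE).

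Aspn, which binds collagen and TGF-β, was lower in KO IntSCs. It ranged from 124 to 162 CPM (median 141 CPM) in WT IntSCs and was 60.3, 67.5, 82.2, 118 and 62.1 CPM in KO IntSCs. All KO libraries were below all WT libraries, with a log2 fold change of -0.86 ± 0.21 (SE). Lum, a regulator of fibril thickness, ranged from 209 to 269 CPM (median 244 CPM) in WT IntSCs and was 101, 129, 173, 179 and 164 CPM in KO IntSCs. These groups were likewise separate, and the log2 fold change was -0.70 ± 0.18 (SE). Bgn, a dermatan sulphate proteoglycan that also signals to innate immune receptors, ranged from 2350 to 3756 CPM (median 2713 CPM) in WT IntSCs and was 2016, 2040, 2173, 2246 and 2155 CPM in KO IntSCs. The KO values were close to each other and just below the lowest WT value, and the log2 fold change was -0.47 ± 0.16 (SE).

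The other two members overlapped between the stromal groups. Dcn, which sequesters TGF-β and binds several receptors, ranged from 3597 to 5354 CPM (median 4861 CPM) in WT IntSCs and was 4093, 2911, 3847, 4440 and 4550 CPM in KO IntSCs, a log2 fold change of -0.25 ± 0.15 (SE). Podn, known to restrain smooth muscle growth, ranged from 186 to 809 CPM (median 438 CPM) in WT IntSCs and was 525.8, 343, 479, 904 and 422 CPM in KO IntSCs. It varied more among WT IntSC libraries than any other member, with a coefficient of variation of 48.4%, against 10.6% for Lum, and its log2 fold change was 0.13 ± 0.31 (SE), turning to -0.13 without KO IntSC 4. As a share of all counts, the 8 genes together took 0.732% to 1.01% in WT IntSCs and 0.576% to 0.876% in KO IntSCs.

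**Figure D1:**
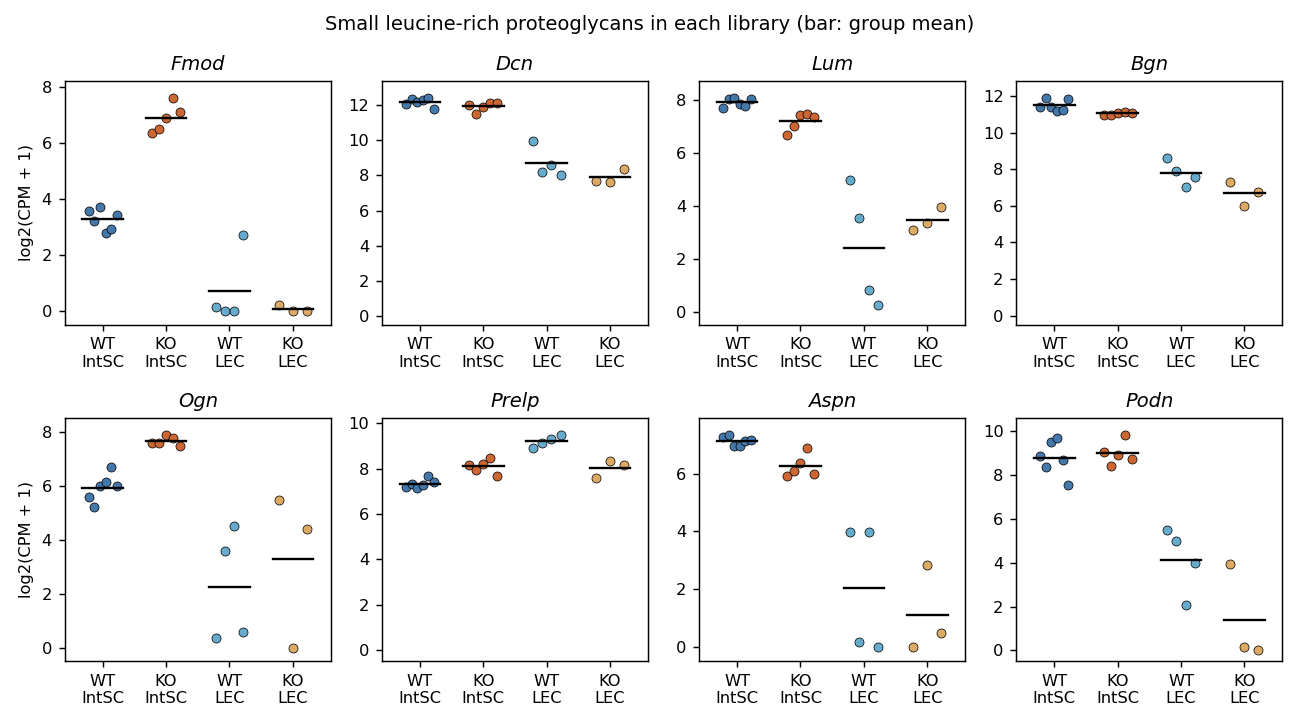
Level of each member in each library as log2(CPM + 1) on the vertical axes, for the 4 groups on the horizontal axes. Points are libraries and bars are group means: Fmod, Ogn and Prelp were higher in all 5 KO IntSC libraries, and Prelp was the member at its highest in WT LECs (476 to 716 CPM).

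Counted against all genes, the members' stromal differences ran in both directions. Past the adjusted threshold of 0.05 were 4 of 8 members, 3 higher (Fmod, Ogn and Prelp) and 1 lower (Aspn), where 1.47% of 12421 genes tested were called (0.853% higher and 0.62% lower). Lum and Bgn were not called by edgeR, but Lum was by DESeq2 and by limma-voom. By CPM alone, 3 members were higher and 3 lower in KO IntSCs without overlap, where 2.82% of the genes tested did not overlap (1.63% higher and 1.18% lower). The median log2 fold change of the members was -0.06, and that of all genes was 0.00. This contrast bore on the choice of the members, so nothing is read from these counts. The count of members called was 2 (Fmod and Ogn) without WT IntSC 1, WT IntSC 2, KO IntSC 1, KO IntSC 2 or KO IntSC 3. Of the 11 fits without 1 library, Prelp was called in 3 and Aspn in 4. It was 0 when all 4 groups shared one fit, with the fold change of Fmod there at 3.78.

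**Figure D2:**
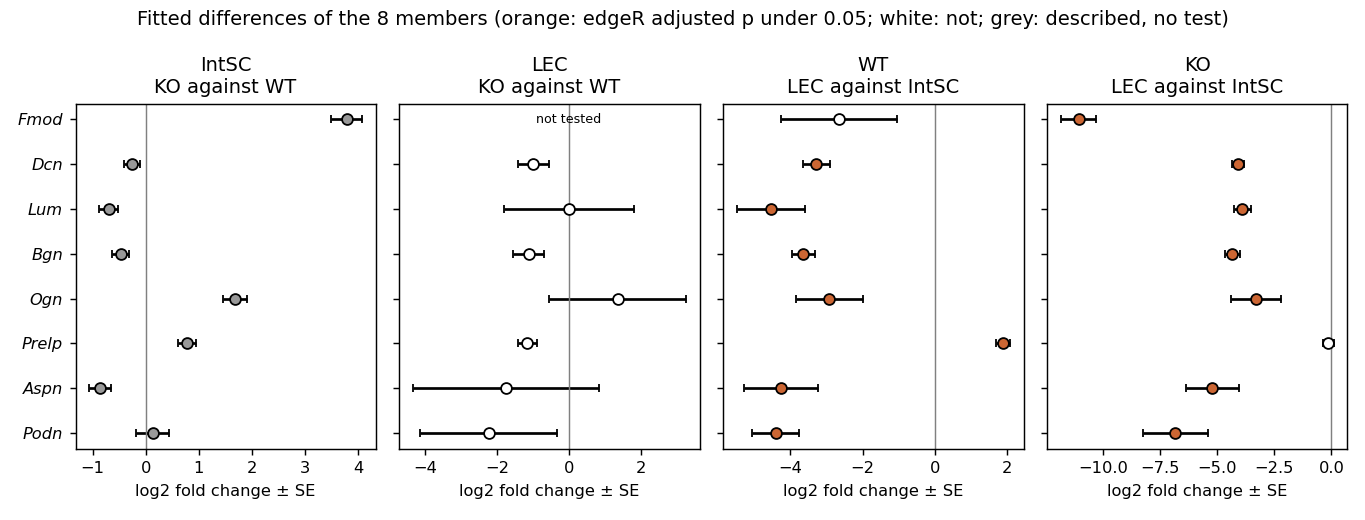
Fitted log2 fold changes with their standard errors (horizontal axes) of the 8 members in the genotype comparisons and the comparisons of LECs with IntSCs. Orange marks an edgeR adjusted p under 0.05, white one above it, and grey the stromal contrast, which is a description: Prelp lies above 0 in WT LECs against WT IntSCs (1.88), where the other members lie below, and the Fmod value in the last panel rests on 1 read in KO LECs. That Fmod value also contains the KO IntSC level that bore on the choice of the members.

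Neighbouring genes did not share a direction throughout. In the chromosome 13 group, Aspn was lower in KO IntSCs and Ogn, past the single gene Omd, was higher. On chromosome 1, Prelp and Fmod were both higher, by 0.77 and 3.78 on the log2 scale, while Optc (opticin), 2.3 kb from Prelp, had a mean of 6.82 ± 6.44 CPM (SD, n = 6) in the WT and of 7.23 ± 4.19 CPM (SD, n = 5) in the KO IntSC libraries. Dcn and Lum on chromosome 10 both had negative fold changes, and the next genes there, Kera and Epyc, had too few reads for a test. Across the 11 IntSC libraries, as a description over points that share the split by genotype, log2(CPM + 1) of Fmod had a Pearson correlation of 0.89 with Ogn and 0.84 with Prelp, and of -0.78 with Aspn and -0.74 with Lum. Ogn and Prelp correlated at 0.90 and Lum and Aspn at 0.86, while Aspn and Podn correlated at -0.06.

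**Figure D3:**
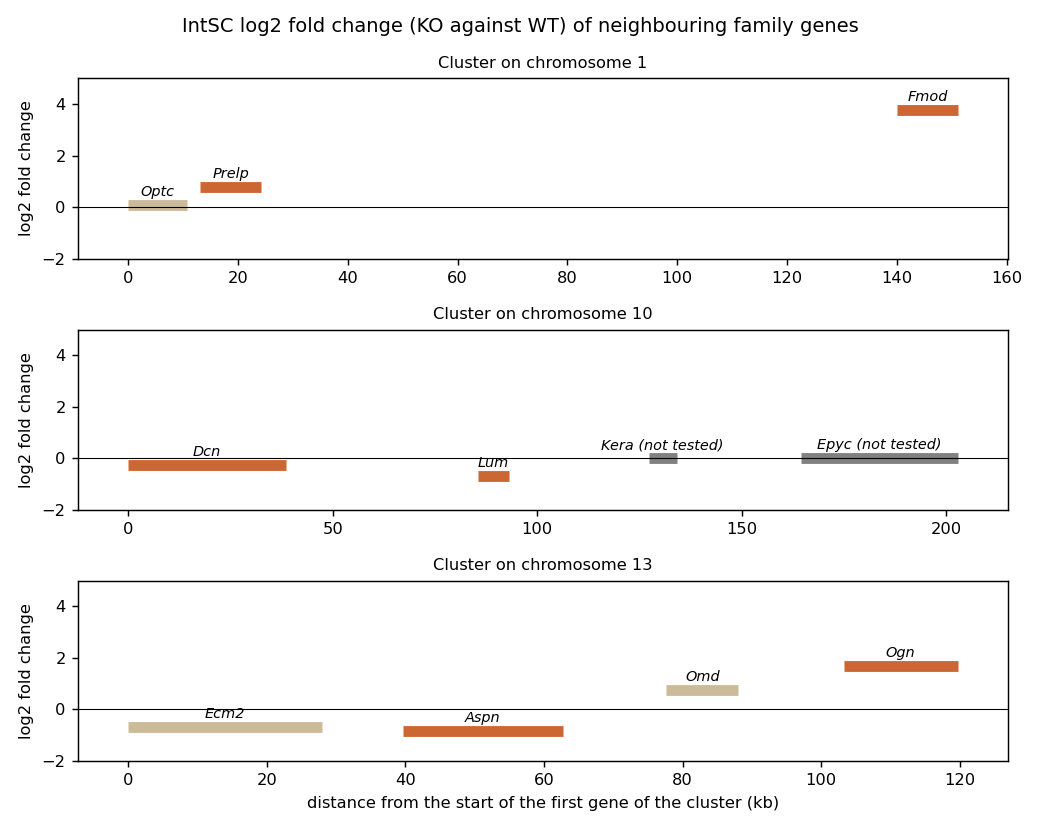
Family genes on chromosomes 1, 10 and 13, drawn by distance in kb from the start of the first gene of each cluster (horizontal axes), at the height of their IntSC log2 fold change, KO against WT (vertical axes). Members are orange, other family genes beige, and genes with too few reads grey: on chromosome 13 Aspn lies at -0.86 and Ogn at 1.68.

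Summed levels of several marker lists differed between the stromal groups. A list of 6 fibroblast markers centred on Cd34 and Grem1 summed to between 4069 and 4704 CPM in WT IntSCs and between 2302 and 3897 CPM in KO IntSCs. In that list Cd34 (means of 1685 and 816 CPM) and Dpt (1447 and 994 CPM) made up most of the lower sum, while 3 of the 6 had fold changes above 0 and the list median was -0.04. The 7 telocyte markers, of fibroblasts that line the epithelium, summed to 150 to 285 CPM and 88.6 to 138 CPM. Of these, 3 had fold changes above 0, and the list median was -0.13. The broader list of 7 fibroblast markers overlapped, at 6983 to 11271 and 4388 to 8051 CPM, as did 7 smooth muscle markers at 1038 to 1799 and 1299.8 to 2292 CPM. LEC markers summed to 237 to 414 CPM in WT and 421 to 498 CPM in KO IntSCs, but 4 of the 8 tested had fold changes above 0 and the list median was 0.22. Paneth cell markers summed to 0.674 to 36.8 and 101 to 232 CPM. Sums that overlapped between WT and KO IntSCs were those of pericyte (305 to 519 and 280.2 to 570.1 CPM), blood endothelial (420.3 to 638 and 569 to 1279.6 CPM), glial (628 to 1144 and 487 to 699.6 CPM), epithelial (0.678 to 137 and 35.6 to 142 CPM) and immediate early genes (5861 to 11319.7 and 9215 to 13316 CPM). All 7 blood endothelial markers (median 0.89) and all 11 immediate early genes (median 0.48) had fold changes above 0. So did 3 of 7 pericyte, 5 of 7 epithelial and 0 of 3 glial markers tested. Mesothelial markers reached at most 13.1 and 42.3 CPM, with Upk3b at 0 in all 11 libraries. The part of these cells in the members' differences was not tested.

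Between the cell types, 7 of the 8 members passed the threshold in the WT libraries, 6 lower and 1 higher in LECs, where 22.6% of 12203 genes tested were called (10.3% higher and 12.3% lower). Dcn was 1016, 296, 379 and 255 CPM in WT LECs, with the first library far above the others and all 4 below every WT IntSC library. The log2 fold change was -3.28 ± 0.37 (SE, adjusted p = 1.2e-05 by edgeR). Bgn was 392, 241, 131 and 188 CPM, a log2 fold change of -3.63 ± 0.31 (SE, adjusted p = 6.1e-07), and Podn was 44.0, 30.8, 3.18 and 15.0 CPM, a change of -4.39 ± 0.65 (SE, adjusted p = 0.000196). Lum, at 30.6, 10.6, 0.748 and 0.199 CPM, differed widely between LEC libraries and had a log2 fold change of -4.53 ± 0.94 (SE, adjusted p = 0.00302).

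Aspn was 14.6, 0.123, 14.7 and 0 CPM in WT LECs, so its libraries fell into a high and a low pair, and its log2 fold change against WT IntSCs was -4.25 ± 1.02 (SE, adjusted p = 0.00798 by edgeR). Ogn was 0.285, 11.2, 21.9 and 0.497 CPM, a change of -2.92 ± 0.92 (SE, adjusted p = 0.0336) that lost the threshold without WT IntSC 5, WT LEC 2 or WT LEC 4 (adjusted p = 0.0611, 0.0752 and 0.0535). Nor did Ogn pass with no filter beyond 1 read, the replicate block or all 4 groups in one fit (adjusted p = 0.0828, 0.0969 and 0.0699). Aspn lost the threshold with no filter beyond 1 read and with the replicate block (adjusted p = 0.0626 and 0.0710). Fmod was 0.0951, 0, 0 and 5.47 CPM, at or near 0 in 3 LEC libraries and close to the WT IntSC range in WT LEC 4. Its difference of -2.65 ± 1.60 (SE) did not pass (adjusted p = 0.282), and without WT LEC 4 it was -7.48 with an adjusted p of 0.0074. The 6 fibroblast markers other than Thy1 had a median summed level in WT LECs of 4.24% of that in WT IntSCs (10.2% with Thy1), and the medians of Dcn, Bgn, Ogn, Aspn, Podn and Lum were at 6.94%, 7.91%, 9.23%, 5.22%, 5.23% and 2.32%. The part of stromal RNA in the LEC libraries was not tested.

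Prelp was the exception. It was 476, 567.8, 624 and 716 CPM in WT LECs, above every IntSC library of either genotype, and 379% of the WT IntSC median. The log2 fold change against WT IntSCs was 1.88 ± 0.19 (SE, adjusted p = 3.9e-06 by edgeR), and it passed the threshold in all 9 alternatives and all 10 fits without 1 library.

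In the KO libraries, 7 members, Prelp excepted, were lower in LECs, where 25.9% of 12758 genes tested were called (16.8% lower). This contrast contains the KO IntSC level of Fmod that bore on the choice of the members, so the Fmod call is no independent support. Fmod had 1 read in the 3 KO LEC libraries together against a mean of 122 ± 44.2 CPM in KO IntSCs (SD, n = 5), a ratio of 2926 with a counting interval from 525 to 115555. Dcn (206, 195 and 327 CPM in KO LECs) had a log2 fold change of -4.11 ± 0.27 (SE, adjusted p = 4.8e-06 by edgeR) and Bgn (159, 62.0 and 106 CPM) one of -4.35 ± 0.33 (SE, adjusted p = 1.1e-05). Lum differed by -3.91 ± 0.37, Aspn by -5.22 ± 1.17, Podn by -6.84 ± 1.42 and Ogn by -3.31 ± 1.09 (SE, adjusted p from 4.4e-05 to 0.0476). The Ogn value passed in 5 of 9 alternatives, with adjusted p up to 0.172, and in 2 of the 8 fits without 1 library, with adjusted p up to 0.0970. Prelp did not differ detectably between KO LECs and KO IntSCs, with a log2 fold change of -0.13 ± 0.24 (SE, adjusted p = 0.767) and a 95% interval, taken from the SE, of -0.60 to 0.34. By group mean, Prelp thus ranked 596 CPM in WT LECs, then 277 CPM in KO IntSCs and 266 CPM in KO LECs, which did not differ beyond their spread, and 161 CPM in WT IntSCs.

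LECs of KO mice, in which the stroma and not the LECs lacked the LATS genes, were compared with WT LECs. None of the 7 members with enough reads passed the threshold, where 0.0658% of 10639 genes tested, 7 genes, were called by edgeR. DESeq2 called 309 genes and 1 member in this contrast, and 837 genes, among them 3 of the 7 members, had an unadjusted p under 0.05. Prelp was 191, 320 and 288 CPM in KO LECs, and all 3 libraries were below all 4 WT LEC libraries, as were 5.8% of the genes tested. The log2 fold change of Prelp was -1.15 ± 0.27 (SE, adjusted p = 0.181 by edgeR). DESeq2 gave -1.11 (adjusted p = 0.0026), and the fit with all 4 groups gave -1.23 (adjusted p = 0.0052).

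The other members overlapped between the LEC groups. Bgn had a log2 fold change of -1.12 ± 0.42 (SE, adjusted p = 0.518 by edgeR) and passed in the fit with all 4 groups, with an adjusted p of 0.0340. Dcn had -0.99 ± 0.44 (SE, adjusted p = 0.587), and -0.35 without WT LEC 1. Lum (7.55, 9.18 and 14.6 CPM in KO LECs), Ogn (44.2, 0 and 20.6 CPM), Aspn (0, 6.12 and 0.389 CPM) and Podn (14.5, 0.109 and 0 CPM) differed widely between LEC libraries. Each of these genes had LEC libraries with 3 counts or fewer, where 3 counts are 0.281 to 0.427 CPM, and others well above that. Their fold changes were -0.00, 1.36, -1.75 and -2.24 with standard errors from 1.80 to 2.59, so even large differences were not detectable. Fmod had too few LEC reads for a test. Beside these values, the 6 fibroblast markers other than Thy1 summed to 306 to 1037 CPM in WT LECs and 96.2 to 254 CPM in KO LECs (695 to 1370 and 478 to 555 CPM with Thy1). The telocyte markers summed to 5.04 to 20.6 and 0.130 to 4.59 CPM, with 5 of the 7 at 0 in every KO LEC library, and the blood endothelial markers to 629 to 856 and 528 to 613 CPM. The LEC markers summed to 8911 to 12930 and 10306 to 15559 CPM, 11 immediate early genes to 2985 to 3834 and 1620 to 1846 CPM, and the Paneth cell markers to 0.596 to 21.1 and 41.1 to 405 CPM. Their part in the members' differences was not tested.

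Prelp had the opposite sign in the 2 cell types, and this difference was tested itself. The genotype by cell type interaction, the IntSC difference minus the LEC difference, was 2.00 ± 0.31 on the log2 scale (SE, adjusted p = 0.000926 by edgeR), against a median of 0.24 over all genes and with 1.7% of 14015 genes called (1.42% with a positive value). It passed in all 8 alternatives, where it ranged from 1.89 to 2.12, and in all 18 fits without 1 library. Fmod also passed, at 8.42 ± 1.78 (SE, adjusted p = 0.0156), but that value rests on WT LEC 4: without it the interaction was 3.59 (adjusted p = 0.481). Both interactions contain the stromal difference that bore on the choice of the members, so they are no independent support for it. Podn, at 2.43 ± 1.39 (SE, adjusted p = 0.441), passed only without KO LEC 1 (adjusted p = 0.0057), and the remaining 5 members had adjusted p from 0.377 to 0.9996.

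The collagens that these proteoglycans bind were examined as a list, which was chosen with earlier results known. Nothing is therefore read from the count of its genes called. Of 11 tested genes for fibrillar and fibril-surface collagens, 4 fell past the threshold in KO IntSCs and none rose. Over all genes tested, 0.62% were called lower and 0.853% higher. The list median was -0.73 against 0.00 for all genes. Col6a3 fell from 1605 ± 387 CPM (SD, n = 6) to 637 ± 101 CPM (SD, n = 5), with a fitted log2 difference of -1.34 ± 0.18 (SE, adjusted p = 0.000284 by edgeR). Col6a2, another chain of the microfibrillar collagen that decorin and biglycan bind, fell by 1.29 (adjusted p = 0.0041). The fibrillar chains Col5a3 and Col3a1 fell by 2.24 (adjusted p = 0.0069) and 0.92 (adjusted p = 0.0438). In LECs none of 10 tested passed by edgeR, 3 had an unadjusted p under 0.05 and DESeq2 called 1, Col3a1. There Col1a2 had a log2 fold change of -0.90 ± 0.53 (SE, adjusted p = 0.818) and Col3a1 of -3.01 ± 0.59 (SE, adjusted p = 0.0879).

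Over all genes tested in IntSCs, 0.853% were called higher and 0.62% lower, and the lists here were chosen with earlier results known. Among enzymes that process and cross-link collagen, 3 of 13 tested in IntSCs had fold changes above 0, and the list median was -0.38. The lysyl oxidase family gene Loxl3 rose, from 58.9 ± 20.2 CPM (SD, n = 6) to 116 ± 27.1 CPM (SD, n = 5). Its fitted log2 difference was 0.98 ± 0.25 (SE, adjusted p = 0.0497 by edgeR). The lysyl hydroxylase gene Plod1 fell by 0.83 (adjusted p = 0.0256). Lox, at 1.46 ± 0.43 (SE), did not pass by edgeR (adjusted p = 0.124) but was called by DESeq2 and by limma-voom. In LECs none of 9 passed by edgeR, 1 had an unadjusted p under 0.05 and DESeq2 called 1, Loxl2. The values there were 0.40 for Plod1 (adjusted p = 0.937) and 0.96 for Loxl2 (adjusted p = 0.291). Of 18 other proteoglycan core proteins tested in IntSCs, 3 fell: the glypican gene Gpc1 by 1.46 (adjusted p = 0.0078), versican (Vcan), a large chondroitin sulphate proteoglycan, by 1.25 (adjusted p = 0.0188), and perlecan (Hspg2), a heparan sulphate proteoglycan of basement membranes that prolargin binds, by 0.73 (adjusted p = 0.0364). In LECs none of 14 passed by edgeR, 3 had an unadjusted p under 0.05 and DESeq2 called 1 (Prg4, lubricin), with Hspg2 at -0.44 and agrin (Agrn) at 0.62 (adjusted p = 0.9999 and 0.636).

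The remaining lists held no gene past the edgeR threshold in either cell type. Of 41 genes tested there in IntSCs, 4 had an unadjusted p under 0.05 and DESeq2 called Igf1r, and of 31 tested in LECs, 1 had an unadjusted p under 0.05 and DESeq2 called none. For chondroitin and dermatan sulphate synthesis, 19 genes were tested in IntSCs with a median of 0.11, and the most abundant were Chpf (-0.31 ± 0.18, SE) and Dsel (-0.04 ± 0.26). In LECs 14 were tested, with Chst15 at 0.12 and Chpf2 at 0.78. For keratan sulphate synthesis, 4 genes were tested in IntSCs, led by B4galt1 (0.07 ± 0.21, SE) and the sulphotransferase gene Chst2 (-0.92 ± 0.33), and 5 in LECs, led by Chst1 (0.33 ± 0.41) and B4galt1 (1.07 ± 0.31). Among 12 receptors and growth factor partners of decorin and biglycan in IntSCs, the endocytic receptor gene Lrp1 had a log2 fold change of -0.31 ± 0.16 (SE) and Igf1r, the receptor of insulin-like growth factor, of 0.59 ± 0.18. Among 10 in LECs, Kdr, the VEGF receptor that decorin can bind, had -0.39 ± 0.22 and Tgfb3 had 0.02 ± 0.46. Of the other small leucine-rich proteoglycans, 6 of 10 were tested in IntSCs, with Ecm2 at -0.68 ± 0.42 (SE) and Optc at 0.09 ± 1.07, and 2 in LECs, with Ecm2 at -0.75 ± 0.93 and Omd at 2.67 ± 2.26. The edgeR adjusted p of these named genes ranged from 0.118 for Igf1r to 0.9999 for Ecm2 in LECs.

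**Figure D4:**
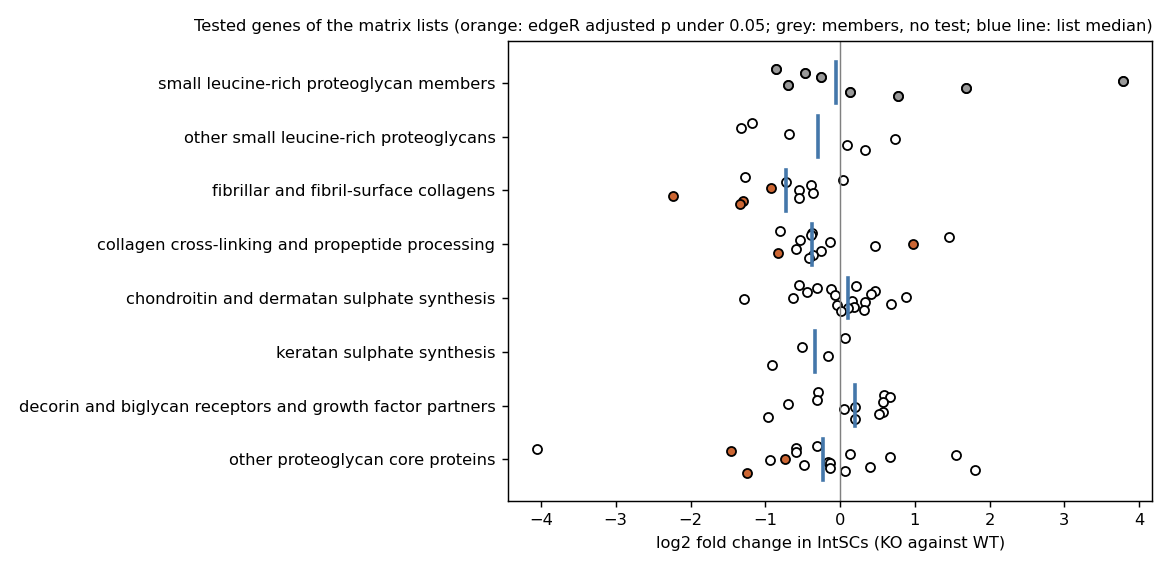
Log2 fold change in IntSCs, KO against WT (horizontal axis), of each tested gene of the matrix lists (vertical axis), with the list median as a blue line. Orange points passed an edgeR adjusted p of 0.05 and grey points are the members, which carry no test: the 4 collagens past the threshold all lie below 0, with a list median of -0.73. The lists were chosen with earlier results known, and 1.47% of all genes tested passed.

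The genes most like Fmod over the 11 IntSC libraries, by Pearson correlation of log2(CPM + 1) among 10545 genes with a mean of at least 5 CPM, were Pex5l (0.99), Wisp2 (0.98), Lyz1 (0.97), AY761184 (0.97) and Defa24 (0.96). All 5 had a mean of at most 1.17 CPM in WT IntSCs, so this likeness mostly describes the split by genotype. Pex5l, a neuronal partner of ion channels, and Wisp2, a CCN family gene, had no read in any KO LEC library. By contrast Lyz1, AY761184 and Defa24, Paneth cell genes, had means of 10.4, 39.7 and 118 CPM in KO LECs, where Fmod had a single read. The genes most like Dcn were Sec61b (0.97), AW112010 (0.92), Wfdc1 (0.91), Col1a2 (0.90) and Mapk8ip1 (0.90). Of these, the collagen chain Col1a2 was, like Dcn, far lower in LECs, at 165 CPM in WT LECs against 2317 CPM in WT IntSCs, whereas Sec61b, of the protein translocon, was 111 and 80.2 CPM. With Spearman rank correlation, 3 of the 5 genes most like Dcn and 0 of the 5 most like Fmod were the same.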

How the data were processed

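RNA of 18 libraries (6 WT IntSC, 5 KO IntSC, 4 WT LEC and 3 KO LEC) was made into QuantSeq 3′ libraries and sequenced. The authors deposited 1 table of raw read counts per library, not normalised. The submitters' processing notes list Bowtie2, edgeR and build mm10, and the methods name TopHat and Cufflinks; the counting program, the annotation and the versions are not given in the sources used here. Each table held 23282 rows, and the counts of 35 symbols on several rows were summed to give 23238 genes. Group and replicate number of each library were read from its title.

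From these counts, edgeR 4.0.16 in R 4.3.3 was run on all genes with TMM factors, filterByExpr and a robust quasi-likelihood fit. Benjamini-Hochberg adjusted p over all genes tested was called under 0.05. The 2 groups compared entered each fit, and all 4 the interaction. Standard errors came from the F statistic. CPM used TMM factors of all 18 libraries. Counting intervals are exact Poisson and, since reads without molecular identifiers are not independent molecules, cover counting error only. Alternatives were RLE and upper-quartile factors, DESeq2 1.42.0, limma-voom 3.58.1, a minimum of 1 read or of a mean count of 10, Rn45s left out, the replicate number as a block, a joint fit of all 4 groups, and leaving out each library. The procedure was tested on simulated data.

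The members and gene lists were chosen with earlier results of these data known. Named were all members, Lats1, Lats2 and Pdgfrb, up to 4 genes per list and genotype contrast by smallest p past the threshold, otherwise the 2 with the highest mean CPM, and the 5 genes most like Fmod and Dcn. Omd, Kera and Epyc were named besides as neighbours of members, and Prg4 and Lox after their values were seen.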

Additional observations from a re-analysis of the deposited data

Results flagged for a closer look

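In 24 groups of 4 to 6 libraries, each of 1 member in 1 group, the highest or lowest library was set against its neighbours, and chance alone gives about 1.2 groups with a library this far apart. There were 2. Fmod in WT LEC 4 was 5.47 CPM, where the next library had 0.0951 CPM. In that library the 6 fibroblast markers other than Thy1 summed to 369.97 CPM, where the other WT LEC libraries had 306 to 1037 CPM, and Dcn (255 CPM), Lum (0.199 CPM) and Aspn (0 CPM) were at their lowest of the 4 libraries. Bgn (188 CPM) and Podn (15.0 CPM) were not. Telocyte (20.6 CPM) and mesothelial (29.2 CPM) marker sums were highest there among WT LEC libraries, and smooth muscle (85.9 CPM) and glial (3.38 CPM) sums lowest. Their part in the Fmod value was not tested. Dcn in WT LEC 1 was 1016 CPM, where the next library had 379 CPM, and WT LEC 1 also had the highest sum of those 6 markers, 1037 CPM.

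The genotype differences of Fmod and Prelp were also set against each other between the cell types. These values contain the stromal difference that bore on the choice of the members. The difference of the log2 fold changes was 8.42 for Fmod (edgeR adjusted p = 0.0156) and 2.00 for Prelp (adjusted p = 0.000926). The Fmod value rests on WT LEC 4 and did not pass without it (3.59, adjusted p = 0.481), by limma-voom (adjusted p = 0.173) or with the replicate block (adjusted p = 0.828). Prelp was higher in 5 of 5 KO IntSC libraries than in any WT IntSC library and lower in 3 of 3 KO LEC libraries than in any WT LEC library.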

How the results depend on the processing

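Of 961 values recomputed under another setting, 854 kept their direction and their side of the threshold or, for counts, stayed within 1.5 times the reported count. In IntSCs, 183 genes were called, 376 by DESeq2, 27 with all 4 groups in one fit and 99 to 186 with 1 library left out. The members called there were 4, with 5 by DESeq2 or limma-voom, 0 when all groups shared one fit, 2 with the replicate block and 2 to 4 with 1 library left out. In LECs, 7 genes were called, 309 by DESeq2, 18 by limma-voom, 32 with no filter beyond 1 read, 20 with a mean count of at least 10, 3 with the replicate block, 538 with all 4 groups in one fit and 0 to 16 with 1 library left out. No member was called in LECs by edgeR, 1 was by DESeq2 and 2 were with all 4 groups in one fit. The interaction was called for 238 genes, for 1023 by DESeq2, 140 by limma-voom, 16 with the replicate block and 161 to 461 with 1 library left out. Members called there were 2, and 1 by limma-voom, with the replicate block or without WT LEC 4. The sign changed for Podn in IntSCs (-0.030 with the block, -0.13 to 0.33 with 1 library left out), for Lum in LECs (0.037 with RLE factors and by DESeq2, 1.88 by limma-voom, 0.016 with no filter, 0.010 with a mean count of at least 10, 0.36 with the block, -0.42 to 1.43 with 1 library left out), for Ogn in LECs (-0.069 with the block), for Prelp in KO LECs against KO IntSCs (-0.27 to 0.050 with 1 library left out) and for the interaction of Ogn (-0.73 to 1.46 with 1 library left out). The causes were not tested. Median log2 fold changes of all genes moved with the factors, from 0.24 to 0.13 with RLE factors for the interaction and from -0.04 to -0.15 with upper-quartile factors for WT LECs against WT IntSCs.

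Same-numbered libraries showed little shared deviation (correlations from -0.07 to 0.06 over all pairs), and the main fits were unpaired. Between WT LECs and WT IntSCs these correlations were 0.019 to 0.034, with a mean of 0.025 against -0.005 for other pairs. Such values cannot show whether same-numbered libraries came from the same animal. With the replicate block, 122 genes were called in IntSCs, 1596 in place of 2763 between WT cell types and 895 in place of 3302 between KO cell types. Depth limits Fmod in LECs, where 3 counts are 0.281 to 0.427 CPM. Lum, Ogn, Aspn and Podn ranged from that level or below to well above it between LEC libraries. Of the 5 genes most like Fmod and the 5 most like Dcn, 0 and 3 were the same with Spearman correlation.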
